A study of Mus musculus with 9 samples.

Results

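Pericentral Wnt-dependent hepatocyte genes are expressed in the hepatocytes nearest the central vein of the liver lobule and depend there on Wnt/beta-catenin signalling. The 10 genes described here are Glul, Cyp2e1, Oat, Axin2, Lgr5, Tbx3, Rnf43, Slc1a2, Lhpp and Rhbg, taken by symbol from GENCODE M21 out of 54532 gene IDs in the deposited count table. All 10 were in the table, and all 10 passed the filter on low counts, with 14763 gene IDs tested in all. They were read in liver RNA of 9 mice, described as male, on a C57BL/6 background and labelled ApoE-/- in every group, so no group is labelled as having an intact Apoe gene.

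The HFD + IgG1 group (replicates 5, 6 and 7) was fed a diet in which fat gave 41% of the calories, starting at 4 weeks of age and lasting 20 weeks. Chow followed for 1 week, and then intraperitoneal injections of 3 mg recombinant human IgG1 at 25, 26 and 27 weeks of age. The HFD + PBS group (replicates 3, 4 and 6) had the same diet, with injections of PBS at the same ages. The normal diet group (replicates 4, 5 and 6) had no high-fat diet, and no injection is named for it. Animals of the injected groups were killed at 29 weeks of age. Livers were picked for sequencing, 3 per group, with Oil Red O staining and triglyceride results in view, which limits how far they stand for all animals of a group.

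In the liver lobule, blood flows from the portal vein to the central vein, and hepatocytes along this path carry out different tasks. Endothelial cells of the central vein secrete Wnt ligands and the R-spondin Rspo3, which stabilise beta-catenin in the adjoining hepatocytes. There beta-catenin, bound to factors of the TCF/LEF family, keeps up genes of glutamine synthesis and xenobiotic metabolism and also raises its own feedback inhibitors. Deletion of beta-catenin in mouse liver is known to remove Glul and Cyp2e1 expression.

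Library totals ran from 16215194 to 18538463 counts. In 3 libraries genes used as checks went against the labels. The library labelled HFD + IgG1 replicate 5 had 235888 Apoe counts, against 225 to 1655 in the other 8 libraries. The library labelled HFD + PBS replicate 6 had 10970 counts of Xist, which is transcribed from the inactive X chromosome of female cells, and the library labelled normal diet replicate 5 had 17065. Both had 0 counts over 4 Y-linked genes, where the other 7 libraries had 2837 to 3385. The treatment label of the antibody group reads IgG1 for replicate 5 alone and names IgG2 and IgG3 for replicates 6 and 7, while the titles and the series design place all 3 in the IgG1 group. The fold changes of the 10 genes, the medians of the gene lists and the named pathway genes other than Myc were also computed without 3 libraries. These were HFD + IgG1 replicate 5, HFD + PBS replicate 6 and normal diet replicate 5, at odds with their labels in Apoe, Xist or Y-linked counts. The values are given after the results of the 10 genes and in the pathway section, while levels, likeness of profiles and marker sums use all 9 libraries. In whole liver, fewer cells of a type and less RNA per cell cannot be told apart.

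No gene of the 10 passed the edgeR quasi-likelihood test at an adjusted p of 0.05 in any of the 3 comparisons, nor did any of the 14763 genes (0% called in each comparison). In HFD + PBS livers the feedback gene Axin2 and the transcription factor Tbx3 had CPM values (counts scaled to the library total and edgeR's TMM factor) below those of every normal diet liver, at 0.547 and 0.551 of the normal diet level, a separation in that direction that 15.3% of all genes had. In HFD + IgG1 livers Tbx3, Rnf43 and Axin2 had values above those of every HFD + PBS liver, at 3.00, 2.62 and 1.65 times the HFD + PBS level, and 15.3% of all genes were separated in this way too. Glul, the textbook marker of this zone, had fold changes between 1.03 and 1.10 in the 3 comparisons, with 95% intervals that ran from -0.56 to 0.74 on the log2 scale over all of them. At an unadjusted edgeR p under 0.05 there were 1389 genes higher and 1687 lower for HFD + PBS against normal diet, 1863 and 1706 for HFD + IgG1 against HFD + PBS, and 566 and 474 for HFD + IgG1 against normal diet, and DESeq2 called 1138, 1270 and 101 genes in these comparisons.

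**Figure D1:**
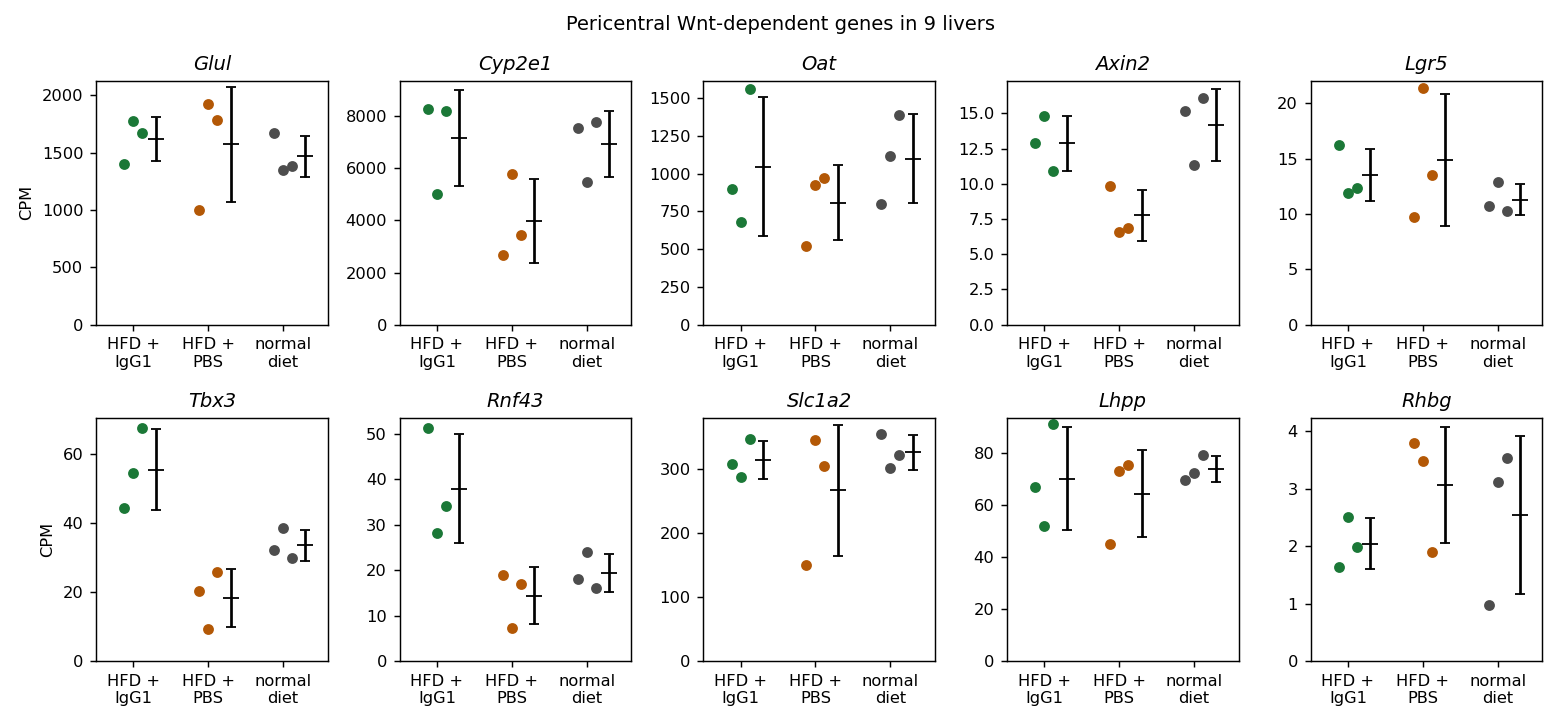
CPM of each of the 10 genes in each library (points, 3 per group) with the group mean and SD (bar), HFD + IgG1 in green, HFD + PBS in orange and normal diet in grey; each y axis starts at 0. Tbx3, Rnf43 and Axin2 were lower in all 3 HFD + PBS livers than in all 3 HFD + IgG1 livers, while the points of Glul overlap in every pair of groups.

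Promoter sequence was at hand for 6 of the 10 genes (RefSeq, GRCm38.p6, 250 bases before to 50 after a transcript start), and the 4 shown are those of the feedback gene Axin2, of Cyp2e1, of Glul, and of Slc1a2. They are given 5′ to 3′ on the strand of the gene, without any base that GENCODE M21 places in an exon of that gene. Exons of other genes were not looked for. Capitals mark matches to the TCF/LEF-type motifs CTTTGAT and CTTTGAA, searched on both strands of the 300-base window. The Axin2 stretch lies at chr11:108920099-108920348 on the plus strand.
Axin2: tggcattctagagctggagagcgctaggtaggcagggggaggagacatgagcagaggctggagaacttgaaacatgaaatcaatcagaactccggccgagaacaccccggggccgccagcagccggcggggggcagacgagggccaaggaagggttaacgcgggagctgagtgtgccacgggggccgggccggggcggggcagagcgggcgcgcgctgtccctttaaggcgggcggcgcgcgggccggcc
The Cyp2e1 stretch lies at chr7:140763569-140763738 on the plus strand, ahead of the M21 start of the gene.
Cyp2e1: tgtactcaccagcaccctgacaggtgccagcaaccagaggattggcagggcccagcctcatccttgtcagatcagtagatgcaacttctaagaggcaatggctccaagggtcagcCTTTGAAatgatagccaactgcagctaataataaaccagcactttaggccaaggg
The Glul stretch lies at chr1:153899679-153899928 on the plus strand.
Glul: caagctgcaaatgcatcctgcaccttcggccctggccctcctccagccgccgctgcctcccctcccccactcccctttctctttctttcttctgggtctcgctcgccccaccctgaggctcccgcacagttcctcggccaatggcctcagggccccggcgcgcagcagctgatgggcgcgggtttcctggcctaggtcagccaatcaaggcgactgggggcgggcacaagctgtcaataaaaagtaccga
The Slc1a2 stretch lies at chr2:102706188-102706355 on the plus strand, before a RefSeq start that falls inside the M21 gene span.
Slc1a2: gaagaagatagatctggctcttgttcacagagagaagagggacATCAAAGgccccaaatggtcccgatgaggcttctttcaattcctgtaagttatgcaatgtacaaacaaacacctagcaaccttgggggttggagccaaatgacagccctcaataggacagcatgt
The window of Cyp2e1 held CTTTGAA 135 bases before the RefSeq start, and that of Slc1a2 held CTTTGAT on the opposite strand, which reads ATCAAAG as printed, 207 bases before the start. The windows of Glul, Axin2, Oat and Rnf43 held neither motif. Of 32851 mouse promoter windows of the same length, 8.65% held at least 1 of the motifs, 3.73% held CTTTGAT and 5.14% held CTTTGAA. These matches describe letters in a short window only.

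Axin2 encodes a scaffold of the beta-catenin destruction complex and is a feedback target transcribed in response to Wnt signalling (ENSMUSG00000000142, GRCm38 chromosome 11, 108920349 to 108950783, plus strand). Axin2 had 12.9, 14.8 and 10.9 CPM in HFD + IgG1 replicates 5, 6 and 7. It was 9.85, 6.58 and 6.86 CPM in HFD + PBS replicates 3, 4 and 6, and 15.2, 11.3 and 16.1 CPM in normal diet replicates 4, 5 and 6. The HFD + PBS libraries were the 3 lowest of the 9, while the HFD + IgG1 and normal diet libraries overlapped. HFD + PBS livers averaged 7.76 ± 1.81 CPM and normal diet livers 14.2 ± 2.56 CPM (SD, n = 3 each). This is a log2 fold change of -0.87 (SE 0.23, 95% interval -1.37 to -0.37, edgeR adjusted p = 0.107). HFD + IgG1 livers averaged 12.9 ± 1.97 CPM against the same HFD + PBS mean, with log2 fold change 0.73 (SE 0.23, interval 0.22 to 1.23, edgeR adjusted p = 0.140). Set against normal diet, the HFD + IgG1 value was -0.14 (SE 0.22, edgeR adjusted p = 0.896). The deposited counts behind these values ran from 115 to 277 per library, and the DESeq2 alternative called the difference between HFD + PBS and normal diet (log2 fold change -0.84, DESeq2 adjusted p = 0.0312) but not that between HFD + IgG1 and HFD + PBS (DESeq2 adjusted p = 0.0756).

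Rnf43 encodes a membrane ubiquitin ligase that removes Frizzled receptors from the cell surface, and it is itself a Wnt target and so a second negative feedback gene (ENSMUSG00000034177, chromosome 11, 87662722 to 87735539, plus strand). Its level was 51.3, 28.3 and 34.2 CPM in HFD + IgG1 replicates 5, 6 and 7. It was 19.0, 7.26 and 17.0 CPM in HFD + PBS replicates 3, 4 and 6, and 18.1, 24.0 and 16.1 CPM in normal diet replicates 4, 5 and 6. All 3 HFD + IgG1 libraries lay above all 6 others, and HFD + PBS replicate 4 lay lowest. Against HFD + PBS the log2 fold change of HFD + IgG1 was 1.39 (SE 0.36, interval 0.58 to 2.19, edgeR adjusted p = 0.140), and against normal diet it was 0.96 (SE 0.35, interval 0.17 to 1.76, edgeR adjusted p = 0.636). For HFD + PBS against normal diet the value was -0.43 (SE 0.35, edgeR adjusted p = 0.520), and it was -0.08 without HFD + PBS replicate 4. DESeq2 called the difference between HFD + IgG1 and HFD + PBS (1.35, DESeq2 adjusted p = 0.00997), and edgeR called it without HFD + IgG1 replicate 6 (1.57, edgeR adjusted p = 0.0265). That edgeR fit called 2356 genes in all for this comparison, and DESeq2 called 3.75% of all genes higher, so neither call is particular to Rnf43.

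Lgr5 encodes a receptor for R-spondins, which protect Frizzled receptors from Rnf43 and Znrf3, and in liver it is a Wnt target of the hepatocytes at the central vein (ENSMUSG00000020140, chromosome 10, 115450311 to 115587780, minus strand). Its level was 16.2, 11.9 and 12.4 CPM in HFD + IgG1 replicates 5, 6 and 7. It was 9.71, 21.4 and 13.5 CPM in HFD + PBS replicates 3, 4 and 6, and 10.7, 12.9 and 10.3 CPM in normal diet replicates 4, 5 and 6. The HFD + PBS libraries held both the lowest and the highest value of the 9, and the groups overlapped in every pair. The log2 fold change was 0.40 for HFD + PBS against normal diet (SE 0.27, interval -0.21 to 1.01, edgeR adjusted p = 0.434) and 0.06 without HFD + PBS replicate 4. It was -0.14 for HFD + IgG1 against HFD + PBS (SE 0.27, interval -0.75 to 0.47, edgeR adjusted p = 0.780). The HFD + PBS mean of Lgr5 was above its normal diet mean, opposite to Axin2. In HFD + PBS replicate 4, where Axin2, Tbx3 and Rnf43 each had their lowest value, Lgr5 and Glul each had their highest.

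Tbx3 encodes a T-box transcription factor that is a beta-catenin target in mouse liver (ENSMUSG00000018604, chromosome 5, 119670669 to 119684724, plus strand). Its level was 44.4, 54.7 and 67.7 CPM in HFD + IgG1 replicates 5, 6 and 7. It was 20.4, 9.26 and 25.8 CPM in HFD + PBS replicates 3, 4 and 6, and 32.2, 38.7 and 29.9 CPM in normal diet replicates 4, 5 and 6. The 3 groups did not overlap in any pair, with HFD + IgG1 highest, normal diet between and HFD + PBS lowest. The log2 fold change was 1.59 for HFD + IgG1 against HFD + PBS (SE 0.33, interval 0.85 to 2.33, edgeR adjusted p = 0.140), 0.73 for HFD + IgG1 against normal diet (SE 0.32, interval 0.00 to 1.45, edgeR adjusted p = 0.704) and -0.86 for HFD + PBS against normal diet (SE 0.33, interval -1.59 to -0.13, edgeR adjusted p = 0.189). Tbx3 had the widest spread of the 10 genes, 7.31 times between its lowest and its highest library. DESeq2 called the difference between HFD + IgG1 and HFD + PBS (1.55, DESeq2 adjusted p = 0.00133), and so did edgeR without HFD + IgG1 replicate 6 (1.60, edgeR adjusted p = 0.0246). In this comparison DESeq2 called 3.75% of all genes higher, and edgeR without that library called 2356 genes in all. Without HFD + PBS replicate 4 the value for HFD + PBS against normal diet was -0.52, and the antisense gene Tbx3os1, which overlaps Tbx3, had 23 to 88 counts per library in a count table whose use of strand is not stated.

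Glul encodes glutamine synthetase, which joins ammonia to glutamate in the last rim of hepatocytes before the central vein (ENSMUSG00000026473, chromosome 1, 153899944 to 153909723, plus strand). Its level was 1401, 1776 and 1669 CPM in HFD + IgG1 replicates 5, 6 and 7. It was 1001, 1927 and 1785 CPM in HFD + PBS replicates 3, 4 and 6, and 1671, 1346 and 1383 CPM in normal diet replicates 4, 5 and 6. Glul varied least of the 10 genes, 1.92 times between the lowest and the highest library, both of which were HFD + PBS livers. The log2 fold change was 0.10 for HFD + PBS against normal diet (SE 0.27, interval -0.50 to 0.70, edgeR adjusted p = 0.871), 0.04 for HFD + IgG1 against HFD + PBS (SE 0.27, interval -0.56 to 0.64, edgeR adjusted p = 0.938) and 0.14 for HFD + IgG1 against normal diet (SE 0.27, interval -0.46 to 0.74, edgeR adjusted p = 0.920). These intervals hold differences of either sign.

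Slc1a2 encodes a sodium-coupled glutamate transporter, known in liver from the same rim of cells as Glul (ENSMUSG00000005089, chromosome 2, 102658659 to 102790784, plus strand). Its level was 308, 288 and 346 CPM in HFD + IgG1 replicates 5, 6 and 7. It was 151, 345 and 304 CPM in HFD + PBS replicates 3, 4 and 6, and 355, 301 and 322 CPM in normal diet replicates 4, 5 and 6. HFD + PBS replicate 3 stood alone, and the other 8 libraries lay between 288 and 355 CPM. The log2 fold change was -0.29 for HFD + PBS against normal diet (SE 0.27, interval -0.89 to 0.31, edgeR adjusted p = 0.566) and 0.02 without HFD + PBS replicate 3. It was 0.24 for HFD + IgG1 against HFD + PBS (SE 0.27, edgeR adjusted p = 0.607) and -0.07 without that library.

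Oat encodes ornithine aminotransferase, a mitochondrial enzyme that turns ornithine into a precursor of glutamate and proline, and Lhpp encodes a histidine and lysine phosphatase. They are neighbours on chromosome 7, with Oat at 132557478 to 132576398 on the minus strand (ENSMUSG00000030934) and Lhpp at 132610638 to 132706420 on the plus strand (ENSMUSG00000030946), 34239 bases apart. Oat had 897, 677 and 1561 CPM in HFD + IgG1 replicates 5, 6 and 7. It was 524, 926 and 973 CPM in HFD + PBS replicates 3, 4 and 6, and 796, 1115 and 1386 CPM in normal diet replicates 4, 5 and 6. Lhpp had 67.1, 52.1 and 91.4 CPM in HFD + IgG1, then 45.2, 73.1 and 75.4 CPM in HFD + PBS, and 69.7, 72.4 and 79.4 CPM in normal diet livers, in the same order of replicates. Both genes were highest in HFD + IgG1 replicate 7 and lowest in HFD + PBS replicate 3, and all groups overlapped. For HFD + PBS against normal diet the log2 fold changes were -0.44 for Oat (SE 0.36, interval -1.25 to 0.36, edgeR adjusted p = 0.509) and -0.19 for Lhpp (SE 0.24, interval -0.73 to 0.34, edgeR adjusted p = 0.677). Between HFD + IgG1 and HFD + PBS they were 0.37 for Oat (SE 0.36, interval -0.44 to 1.18) and 0.12 for Lhpp (SE 0.24, interval -0.41 to 0.66). Without HFD + IgG1 replicate 7 these values were -0.07 for Oat and -0.15 for Lhpp, and without HFD + PBS replicate 3 the value of Lhpp for HFD + PBS against normal diet was 0.03. M21 places both genes inside the span of Fgfr2 (688 to 1532 counts per library), so reads of the 3 genes may not be fully separated.

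Rhbg encodes an ammonium transporter of the Rh family found on pericentral hepatocytes (ENSMUSG00000104445, chromosome 3, 88242874 to 88254709, minus strand). It was the gene with the fewest reads of the 10, with 23, 47 and 33 counts in HFD + IgG1 replicates 5, 6 and 7, then 86, 61 and 37 in HFD + PBS replicates 3, 4 and 6, and 16, 56 and 59 in normal diet replicates 4, 5 and 6. These correspond to 1.64, 2.51 and 1.99 CPM in HFD + IgG1, 3.80, 3.49 and 1.91 CPM in HFD + PBS, and 0.977, 3.12 and 3.54 CPM in normal diet livers, and the groups overlapped in every pair. No comparison of Rhbg passed the test: the log2 fold change was 0.27 for HFD + PBS against normal diet (SE 0.47, interval -0.79 to 1.32, edgeR adjusted p = 0.785) and -0.58 for HFD + IgG1 against HFD + PBS (SE 0.48, interval -1.64 to 0.49, edgeR adjusted p = 0.468). The value for HFD + PBS against normal diet was -0.09 without normal diet replicate 4.

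Cyp2e1 encodes the cytochrome P450 that oxidises ethanol and paracetamol in pericentral hepatocytes (ENSMUSG00000025479, chromosome 7, 140763739 to 140774987, plus strand). Its level was 8267, 5023 and 8178 CPM in HFD + IgG1 replicates 5, 6 and 7. It was 2666, 5773 and 3455 CPM in HFD + PBS replicates 3, 4 and 6, and 7537, 5472 and 7775 CPM in normal diet replicates 4, 5 and 6. HFD + PBS replicate 4 lay within the range of the other groups, while HFD + PBS replicates 3 and 6 lay below all other libraries. Its log2 fold change was -0.81 for HFD + PBS against normal diet (SE 0.35, interval -1.58 to -0.03, edgeR adjusted p = 0.224) and 0.85 for HFD + IgG1 against HFD + PBS (SE 0.35, interval 0.08 to 1.62, edgeR adjusted p = 0.180). For HFD + IgG1 against normal diet it was 0.05 (SE 0.34, interval -0.72 to 0.81, edgeR adjusted p = 0.981).

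**Figure D2:**
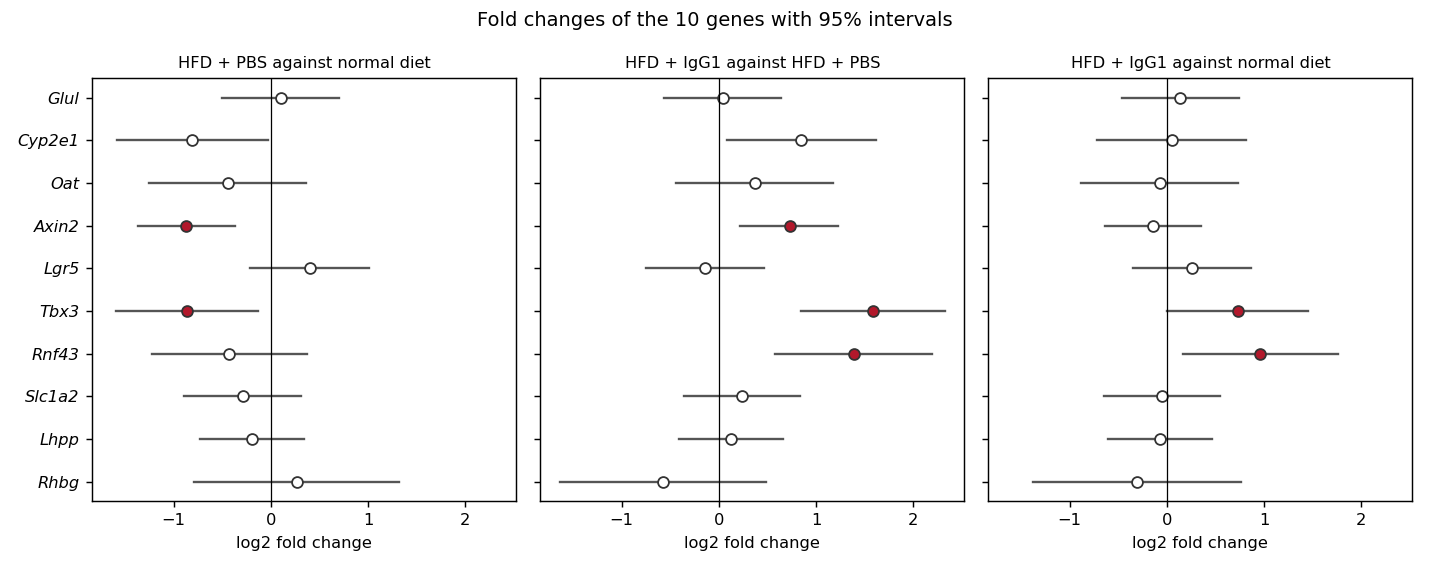
Log2 fold change of each gene (circle) with its 95% interval (line) from edgeR in the 3 comparisons; filled circles mark genes whose 3 libraries of one group all lay on one side of the 3 of the other. Axin2 and Tbx3 are filled on the negative side for HFD + PBS against normal diet, and Tbx3, Rnf43 and Axin2 on the positive side for HFD + IgG1 against HFD + PBS.

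The 10 genes were chosen with earlier results of these data known, so counts set beside the shares of all genes are a description and not an independent test. Counted over the 10 genes, HFD + PBS against normal diet gave 3 positive and 7 negative log2 fold changes (negative in 50.3% of all genes), with a median of -0.36 beside 0.00 for all genes tested. Of the 10, 3 were lower at an unadjusted edgeR p under 0.05 (Axin2, Tbx3 and Cyp2e1), a rule that 11.4% of all genes met in that direction, and 2 had no overlap in that direction, which 15.3% of all genes met. Set against HFD + PBS, HFD + IgG1 gave 8 that were positive (52.8% of all genes), with a median of 0.30 beside 0.04 for all genes. Here 4 of the 10 were higher at an unadjusted p under 0.05 (Tbx3, Rnf43, Axin2 and Cyp2e1), against 12.6% of all genes, and 3 had no overlap, against 15.3%. For HFD + IgG1 against normal diet 5 were positive (50.4% of all genes) and 5 negative, with a median of 0.00 beside 0.00 for all genes, and 2 were higher by both rules (Rnf43 and Tbx3), against 3.83% of all genes by p and 5.54% by overlap. DESeq2 called 1 of the 10 lower for HFD + PBS against normal diet (3.80% of all genes), 2 higher for HFD + IgG1 against HFD + PBS (3.75% of all genes), and 0 for HFD + IgG1 against normal diet, where it called 0.715% of all genes in either direction. Limma-voom called 0 of the 10 in any comparison. At an unadjusted limma p under 0.05 it had 3 lower for HFD + PBS against normal diet, 4 higher for HFD + IgG1 against HFD + PBS and 2 higher for HFD + IgG1 against normal diet, where 20.6%, 23.6% and 6.76% of all genes met that p in either direction.

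The comparisons of HFD + PBS against normal diet and of HFD + IgG1 against HFD + PBS share the 3 HFD + PBS libraries, so a low value in these libraries enters both with opposite signs. When the 3 libraries that went against their labels were left out, Tbx3 had log2 fold changes of -1.03 for HFD + PBS against normal diet and 2.0 for HFD + IgG1 against HFD + PBS. In that fit Axin2 had -0.90 and 0.60, Rnf43 -0.35 and 1.20, and Cyp2e1 -0.83 and 0.60, with edgeR adjusted p between 0.280 and 0.717 over these 8 values. The median of the 10 was then -0.38 for HFD + PBS against normal diet (8 negative), 0.44 for HFD + IgG1 against HFD + PBS (8 positive) and 0.00 for HFD + IgG1 against normal diet, beside 0.04, -0.01 and 0.01 for all genes. With HFD + IgG1 replicate 5 as the only antibody library, Tbx3 had 1.27, Rnf43 1.84, Axin2 0.74 and Cyp2e1 1.07 for HFD + IgG1 against HFD + PBS. These values rest on the library with 235888 Apoe counts.

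On a scale that allows for exon length, CPM per kb, the 10 genes spanned a wide range with a similar order in each group. Cyp2e1 led with 3316 CPM per kb in HFD + IgG1, 1837 in HFD + PBS and 3210 in normal diet livers (means of 3). Glul had 486, 473 and 441 CPM per kb and Oat 443, 342 and 466 in the same order of groups, and their libraries overlapped in each group. Lhpp had 29.1, 26.7 and 30.6 CPM per kb and Slc1a2 23.9, 20.3 and 24.8, with overlap in HFD + IgG1 and HFD + PBS livers but not in normal diet livers. In HFD + IgG1 livers Tbx3 (8.39) and Rnf43 (5.78) overlapped and both lay above Axin2 (2.34), which lay above Lgr5 (1.32), while Rhbg (1.06) overlapped Lgr5. In HFD + PBS livers neighbours in the order of Tbx3 (2.79), Rnf43 (2.20), Rhbg (1.58), Lgr5 (1.45) and Axin2 (1.41) all overlapped. In normal diet livers Tbx3 (5.07) lay above Rnf43 (2.96), which overlapped Axin2 (2.58), and Rhbg (1.31) and Lgr5 (1.10) overlapped below them. Axin2 was thus last of the 10 in HFD + PBS livers and in eighth place in both other groups.

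**Figure D3:**
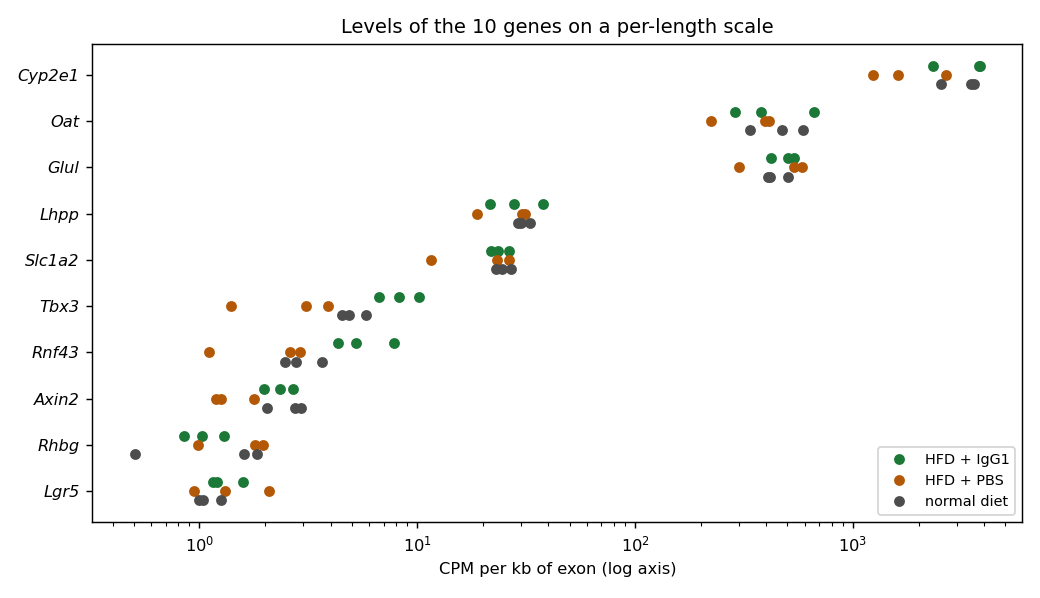
Level of each gene in CPM per kb of exon on a log axis, with 1 point per library and the groups in separate lines for each gene (HFD + IgG1 above, HFD + PBS in the middle, normal diet below). Cyp2e1 lies above Oat and Glul, which lie above Lhpp and Slc1a2, and the 3 HFD + PBS points of Tbx3 lie left of its other 6.

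The libraries differed in how the 10 genes moved together. Of the 10 genes, 6 had their lowest value in HFD + PBS replicate 3 (Glul, Cyp2e1, Oat, Lgr5, Slc1a2 and Lhpp) and 3 in HFD + PBS replicate 4 (Axin2, Tbx3 and Rnf43), and Rhbg was lowest in normal diet replicate 4. With each gene centred on its mean log2(CPM + 1) over the 9 libraries, the median of the 10 was 0.13, 0.00 and 0.32 in HFD + IgG1 replicates 5, 6 and 7. It was -0.60, 0.07 and -0.10 in HFD + PBS replicates 3, 4 and 6, and 0.03, 0.06 and 0.17 in normal diet replicates 4, 5 and 6. HFD + PBS replicate 3 thus held the lowest median, and HFD + PBS replicate 4 lay among the normal diet libraries.

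That library was low in other hepatocyte genes too. In HFD + PBS replicate 3 the median was -0.37 for 26 other pericentral genes, -0.66 for 22 periportal genes and -0.75 for 9 hepatocyte markers such as albumin. In HFD + PBS replicate 4 the 3 medians were -0.08, -0.15 and 0.13. In HFD + IgG1 replicates 5 and 7 the hepatocyte markers stood at 0.56 and 0.52, above the 10 genes. The summed CPM of the hepatocyte markers was 98365 to 173187 in HFD + IgG1, 57924 to 111712 in HFD + PBS and 85096 to 93393 in normal diet livers. The summed CPM of 8 neutrophil markers was 13.5 to 613 in HFD + IgG1, 445 to 3955 in HFD + PBS and 36.4 to 186 in normal diet livers, with the highest value in HFD + PBS replicate 3. The 8 cholangiocyte markers summed to 64.4 to 116, 162 to 312 and 56.8 to 83.7 CPM in the same order of groups, and the 8 markers of Kupffer cells and macrophages to 592 to 1961, 1779 to 2351 and 1501 to 1921 CPM. Against normal diet all 8 neutrophil, all 8 cholangiocyte and all 8 Kupffer cell markers were positive in HFD + PBS livers (median log2 fold changes 4.08, 1.15 and 0.56). So were all 8 T and NK cell markers (median 0.94) and 5 of 8 stellate cell and fibroblast markers (0.22). Of 6 B and plasma cell markers 3 were positive (-0.07), and of 9 hepatocyte markers 2 (-0.21). No marker of these lists was at 0 throughout a group, while the skeletal muscle genes Ckm and Myh4 and the pancreatic genes Cpa1, Pnlip and Cel were at 0 in all groups. The part of these cell types in the values of the 10 genes was not tested.

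**Figure D4:**
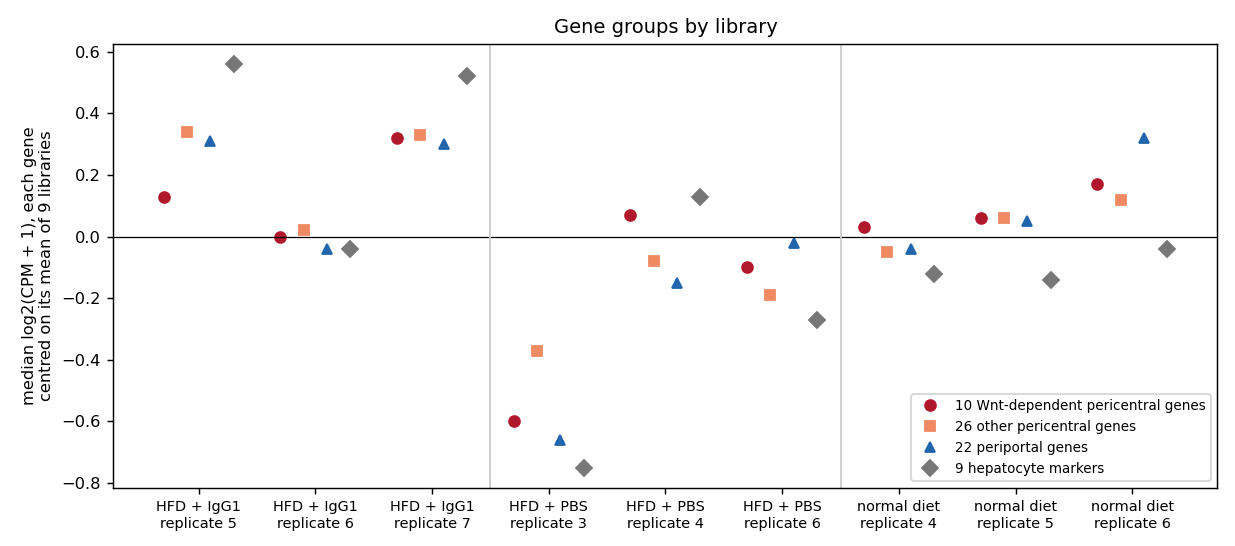
Median over each gene group of log2(CPM + 1), each gene centred on its mean over 9 libraries, for every library (HFD + IgG1, HFD + PBS and normal diet from left to right). In HFD + PBS replicate 3 all 4 gene groups lie below 0, from -0.37 to -0.75, and in HFD + PBS replicate 4 they lie between -0.15 and 0.13.

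The zonated genes outside the 10 allow the same comparisons. The 26 other pericentral genes had a median log2 fold change of -0.26 for HFD + PBS against normal diet (19 negative) and 0.50 for HFD + IgG1 against HFD + PBS (18 positive). The 22 periportal genes had -0.37 (14 negative) and 0.30 (16 positive), beside -0.36 and 0.30 for the 10 genes. None of either list passed the edgeR test. For HFD + PBS against normal diet, 3 other pericentral genes were higher and 4 lower at an unadjusted edgeR p under 0.05, and 0 periportal genes were higher and 7 lower, where 9.41% of all genes were higher and 11.4% lower. For HFD + IgG1 against HFD + PBS, 9 other pericentral genes were higher and 2 lower, and 7 periportal genes were higher and 0 lower, beside 12.6% and 11.6% of all genes. DESeq2 called 3 other pericentral genes higher and 3 lower in the first of these comparisons, and 0 periportal genes higher and 2 lower, where it called 3.47% of all genes higher and 3.80% lower. In the second it called 7 other pericentral genes higher and 1 lower, and 3 periportal genes higher and 0 lower, beside 3.75% and 4.92% of all genes. Nr1i3, the xenobiotic receptor CAR, had 19.9 ± 4.54 CPM in HFD + PBS and 34.4 ± 1.59 CPM in normal diet livers (SD, n = 3 each; log2 fold change -0.79, SE 0.17, edgeR adjusted p = 0.0786). Aldh1a1, a retinaldehyde dehydrogenase, had 1283 ± 524 CPM in HFD + IgG1 and 427 ± 197 CPM in HFD + PBS livers (1.59, SE 0.43, edgeR adjusted p = 0.140). Not all pericentral genes were lower in HFD + PBS livers: Gstm3, a glutathione transferase, had 149 ± 123 CPM in HFD + PBS and 10.8 ± 4.84 CPM in normal diet livers (3.78, SE 0.69, edgeR adjusted p = 0.0780), without overlap, as for 13.0% of all genes in that direction. Without the libraries that went against their labels, the medians for HFD + PBS against normal diet and for HFD + IgG1 against HFD + PBS were -0.25 and 0.41 for the other pericentral genes and -0.42 and 0.25 for the periportal genes. Nr1i3 was then -0.99, Gstm3 4.14 and Aldh1a1 1.25 in the comparisons just given.

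The genes whose profile over the 9 libraries was closest to that of Glul, by root mean square difference of centred log2(CPM + 1), were Wdr46 (0.126), Btd (0.126), Ttpa (0.129), Reps2 (0.147) and Metap1d (0.148), where the median over 13223 genes was 0.396. This measure takes in the size of the variation as well as its shape, and a gene with no variation at all would stand at 0.275 from Glul and 0.407 from Axin2. Among the 10 genes Slc1a2 (0.214), Lhpp (0.284) and Lgr5 (0.285) were nearest to Glul, with Slc1a2 alone closer than a flat profile, and Tbx3 (0.821) and Rnf43 (0.820) were farthest. For Axin2 the closest genes were Zswim5 (0.143), Kdm8 (0.157), Zfp219 (0.164), 1810017P11Rik (0.166) and Usp28 (0.171), beside a median of 0.482. The nearest of the 10 to Axin2 was Cyp2e1, at 0.485, farther than a flat profile.

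The rest of the Wnt pathway was described by role. Among the ligands, R-spondins and their secretion factors, 11 of 13 genes were tested and none passed the edgeR test. At an unadjusted p under 0.05, 2 were higher and 0 lower for HFD + PBS against normal diet (9.41% and 11.4% of all genes), and 0 were higher and 2 lower for HFD + IgG1 against HFD + PBS (12.6% and 11.6% of all genes). DESeq2 called 1 higher and 0 lower in the first comparison, where it called 3.47% and 3.80% of all genes. It called 0 higher and 0 lower in the second, beside 3.75% and 4.92%. Wnt9b, a ligand made by central vein endothelium, had 2.71, 1.50 and 1.99 CPM in HFD + IgG1 replicates 5, 6 and 7. It was 3.09, 4.46 and 4.23 CPM in HFD + PBS replicates 3, 4 and 6, and 1.16, 1.95 and 1.32 CPM in normal diet replicates 4, 5 and 6. All 3 HFD + PBS values lay above the other 6, opposite to Axin2. The log2 fold change of Wnt9b was 1.40 for HFD + PBS against normal diet (SE 0.35, interval 0.62 to 2.20, edgeR adjusted p = 0.102, DESeq2 adjusted p = 0.00772) and -0.93 for HFD + IgG1 against HFD + PBS (SE 0.35, edgeR adjusted p = 0.161). Rspo3, the R-spondin of the central vein, had 11.6 ± 1.03 CPM in HFD + PBS and 8.14 ± 1.16 CPM in normal diet livers (SD, n = 3 each; 0.51, SE 0.18, edgeR adjusted p = 0.170), also without overlap. Wnt2, the other main ligand of this endothelium, had 6.94 ± 1.79 CPM in HFD + IgG1, against 4.84 ± 0.636 CPM in HFD + PBS (0.52, SE 0.24, edgeR adjusted p = 0.226). The 11 markers of central vein and sinusoidal endothelium, the cells known to make these ligands, summed to 268 to 442 CPM in HFD + IgG1, 339 to 548 CPM in HFD + PBS and 387 to 432 CPM in normal diet livers, with none at 0 throughout a group. Of the 11, 7 were positive for HFD + PBS against normal diet (median log2 fold change 0.34) and 3 for HFD + IgG1 against HFD + PBS (median -0.36), and their part in the values of the ligands was not tested.

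Of 13 receptor genes 11 were tested, and for HFD + PBS against normal diet all 11 log2 fold changes were negative, a sign that 50.3% of all genes had (median -0.29), with none past the edgeR threshold, and 0 higher and 2 lower at an unadjusted p under 0.05. The co-receptor Lrp6 had 92.7 ± 12.4 CPM in HFD + PBS and 157 ± 20.8 CPM in normal diet livers (SD, n = 3 each; -0.76, SE 0.16, edgeR adjusted p = 0.0786, DESeq2 adjusted p = 0.00496), and the Frizzled receptor Fzd7 had 18.4 ± 4.23 and 28.5 ± 2.59 CPM (-0.63, SE 0.20, edgeR adjusted p = 0.146). For HFD + IgG1 against HFD + PBS 9 of the 11 were positive (52.8% of all genes; median 0.28), with 4 higher and 0 lower at an unadjusted p under 0.05, Fzd5 at 1.12 (SE 0.34, edgeR adjusted p = 0.140) and Fzd7 at 0.64 (SE 0.20, edgeR adjusted p = 0.140). DESeq2 called 0 receptor genes higher and 1 lower in the first of these comparisons (3.47% and 3.80% of all genes). In the second it called 2 higher and 0 lower (3.75% and 4.92%). For HFD + IgG1 against normal diet 5 receptor genes were positive (50.4% of all genes) and 6 negative (median -0.12). Lrp6 was -0.46 there (SE 0.16, edgeR adjusted p = 0.625). Of 20 genes of the destruction complex and its transducers 19 were tested, with 15 negative for HFD + PBS against normal diet (50.3% of all genes; median -0.20) and 16 positive for HFD + IgG1 against HFD + PBS (52.8% of all genes; median 0.20), and none past the edgeR or the DESeq2 threshold. At an unadjusted p under 0.05, 0 were higher and 3 lower in the first comparison, where 9.41% and 11.4% of all genes were, and 3 were higher and 0 lower in the second, beside 12.6% and 11.6%. The beta-catenin cofactor Bcl9l was the member of that list with the smallest p for HFD + IgG1 against HFD + PBS, at 0.70 (SE 0.23, edgeR adjusted p = 0.141).

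Antagonists and feedback targets went both ways, with 11 of 18 tested and none past the edgeR threshold (2 higher and 1 lower at an unadjusted p under 0.05 for HFD + PBS against normal diet, 2 higher and 2 lower for HFD + IgG1 against HFD + PBS, shares of all genes as above). DESeq2 called 1 higher and 1 lower in the first comparison, and 0 higher and 2 lower in the second, with its shares of all genes also as above. Znrf3, the partner and paralog of Rnf43, had 22.0, 15.2 and 13.0 CPM in HFD + IgG1 replicates 5, 6 and 7. It was 9.80, 8.69 and 12.7 CPM in HFD + PBS replicates 3, 4 and 6, and 20.3, 25.3 and 20.0 CPM in normal diet replicates 4, 5 and 6. As with Axin2, all 3 HFD + PBS livers lay below the other 6 (-1.07, SE 0.23, edgeR adjusted p = 0.0786 against normal diet; 0.68, SE 0.23, edgeR adjusted p = 0.142 for HFD + IgG1 against HFD + PBS). Sp5, a transcription factor induced by Wnt signalling, had a log2 fold change of 1.04 for HFD + IgG1 against HFD + PBS (SE 0.44, edgeR adjusted p = 0.189). The secreted antagonist Frzb lay the other way, with 3.20 ± 1.18 CPM in HFD + IgG1, 8.72 ± 2.65 CPM in HFD + PBS and 3.15 ± 1.64 CPM in normal diet livers (SD, n = 3 each). Myc, of the same list, lay as Frzb did, with 5.31 ± 3.62 CPM in HFD + IgG1, 13.5 ± 0.861 CPM in HFD + PBS and 6.15 ± 1.39 CPM in normal diet livers. Its log2 fold change was 1.13 for HFD + PBS against normal diet (SE 0.41, edgeR adjusted p = 0.177). For HFD + IgG1 against HFD + PBS it was -1.33 (SE 0.41, edgeR adjusted p = 0.140, DESeq2 adjusted p = 0.0267). Myc was not recomputed without the libraries that went against their labels.

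Without the libraries that went against their labels, the receptor list had a median of -0.30 for HFD + PBS against normal diet (all 11 negative) and 0.07 for HFD + IgG1 against HFD + PBS (7 positive), beside 0.04 and -0.01 for all genes. The destruction complex list had -0.18 (14 negative) and 0.07 (14 positive), the ligand list 0.09 and -0.36, and the antagonist list 0.42 and -0.17. For HFD + PBS against normal diet Wnt9b was then 1.63, Rspo3 0.72, Lrp6 -0.74, Fzd7 -0.67, Znrf3 -1.10 and Frzb 2.14. Wnt9b for HFD + IgG1 against HFD + PBS was -1.16, that of Wnt2 0.39, Fzd5 0.86, Fzd7 0.56, Bcl9l 0.72, Znrf3 0.57, Sp5 1.43 and Frzb -1.62. None of these genes passed the edgeR test there, with the lowest adjusted p at 0.168 and 0.566 in these comparisons. The direction of each was as with all 9 libraries, while the median of the antagonist list for HFD + IgG1 against HFD + PBS had been 0.03.

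**Figure D5:**
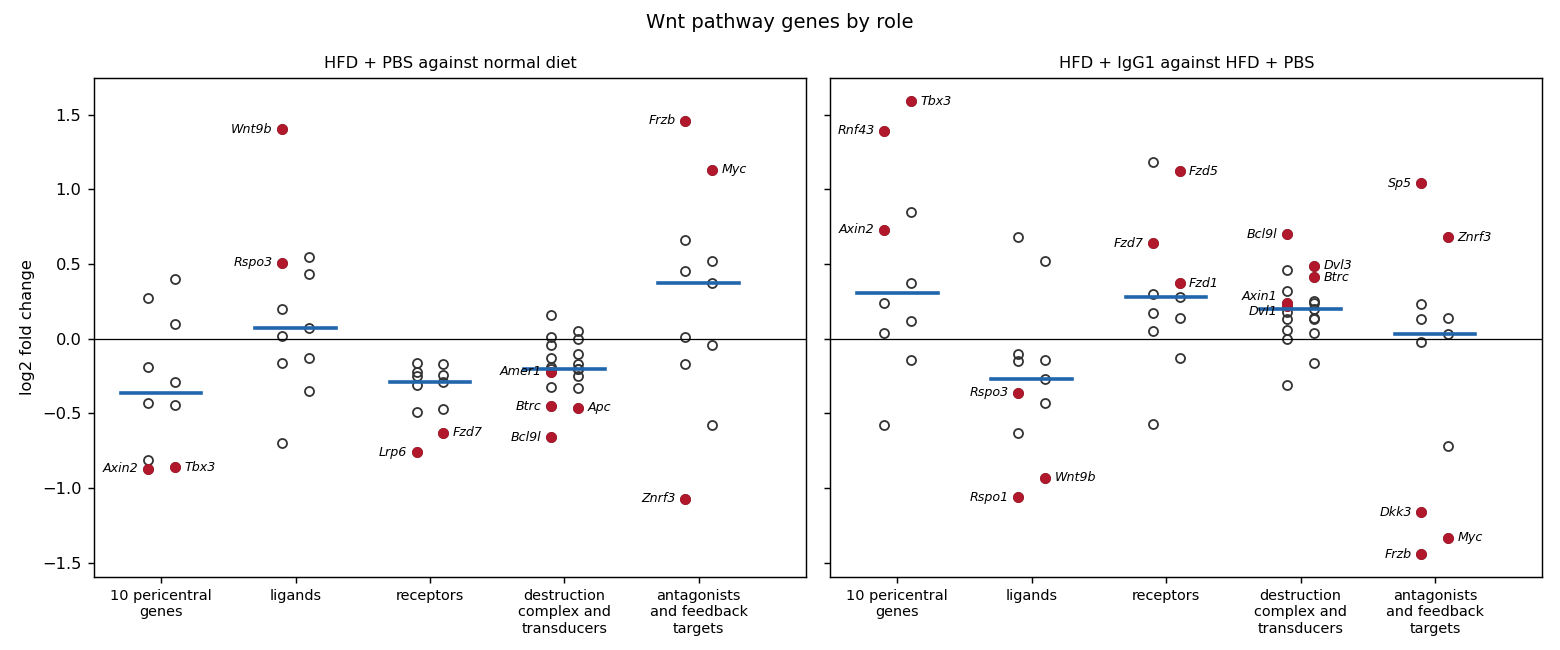
Log2 fold change of each tested gene of the Wnt pathway by role (circles; filled and named where the libraries of the 2 groups did not overlap) with the median of each list (blue line), for HFD + PBS against normal diet and HFD + IgG1 against HFD + PBS, which share the HFD + PBS libraries. All 11 receptor genes lie below 0 on the left, while the ligands Wnt9b and Rspo3 lie above 0 there.

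Around the Glul reaction, 16 of 18 genes of glutamine, glutamate and proline handling were tested and none passed the edgeR test, with medians of 0.17 for HFD + PBS against normal diet and 0.07 for HFD + IgG1 against HFD + PBS (0.29 and 0.12 without the libraries that went against their labels). At an unadjusted p under 0.05, 3 were higher and 3 lower in the first comparison (9.41% and 11.4% of all genes) and 5 higher and 1 lower in the second (12.6% and 11.6%). DESeq2 called 1 higher and 1 lower in the first (3.47% and 3.80% of all genes) and 2 higher and 0 lower in the second (3.75% and 4.92%). The neutral amino acid transporter Slc1a4 had 11.5 ± 1.27 CPM in HFD + IgG1, 11.5 ± 2.73 CPM in HFD + PBS and 4.42 ± 1.55 CPM in normal diet livers (SD, n = 3 each). Both high-fat groups lay above normal diet without overlap (edgeR adjusted p = 0.0780 for HFD + PBS and 0.414 for HFD + IgG1). DESeq2 called both differences of Slc1a4 (DESeq2 adjusted p = 7.22e-04 and 0.00417). Over all genes, 13.0% lay above normal diet without overlap for HFD + PBS and 5.54% for HFD + IgG1, so at most 5.54% could do so in both. The share with both was not counted. None of the 10 pericentral genes lay above normal diet in both, which does not set them apart at such a share. The amino acid transporter Slc38a4 had 613 ± 151 CPM in HFD + PBS and 1188 ± 138 CPM in normal diet livers (-0.95, SE 0.25, edgeR adjusted p = 0.107, DESeq2 adjusted p = 0.00490). Without the libraries that went against their labels, Slc1a4 had 1.88 for HFD + PBS and 1.74 for HFD + IgG1 against normal diet, and Slc38a4 had -0.80 for HFD + PBS against normal diet.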

How the data were processed

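Total RNA of 9 livers was extracted with Trizol and made into NEBNext Ultra libraries, per the labels' protocols. The deposited values are the authors' raw counts per Ensembl gene ID, not normalised. The submitters' processing notes name mm10 and Bowtie 0.12.2; the counting program, annotation and strand setting are not stated there. Of 54532 IDs, 54495 were named in GENCODE M21. Titles and the series design gave the groups.

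Counts were analysed in R 4.3.3 with edgeR 4.0.16: TMM factors (0.865 to 1.26), filterByExpr (minimum count 10, minimum total count 15), 1 coefficient per group, all 9 libraries sharing 1 estimate of the spread (common dispersion 0.101), glmQLFit with robust = TRUE, glmQLFTest (two-sided) and Benjamini-Hochberg adjustment over 14763 genes, threshold 0.05. CPM per kb used the union of M21 exons. Groups "did not overlap" where every library of one lay above every library of the other. An exact 3 against 3 test cannot go below a p of 0.1 and was not made. Each liver is 1 sample, and p-values set the difference between groups against a spread between livers estimated over all 9 libraries. The workflow was tested on simulated data. All 10 genes are named, with up to 4 genes of smallest p per pathway list and comparison, and the 5 profiles closest to Glul and to Axin2. Apoe, Xist and 4 Y-linked genes served as label checks. The genes and lists were chosen with earlier results of these data known. Alternatives were DESeq2 1.42.0, limma-voom (limma 3.58.1), other factors and filters, robust = FALSE, subsets of libraries, a block for the replicate number and the omission of each library in turn.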

Additional observations from a re-analysis of the deposited data

How the results depend on the processing

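Under 21 other settings, 620 fold changes of the 10 genes were recomputed: 580 kept direction and side of the threshold, 5 passed it (Axin2, Tbx3 and Rnf43 with DESeq2, and Tbx3 and Rnf43 without HFD + IgG1 replicate 6) and 35 changed sign, none of them called. The cause was not tested. Over all genes edgeR called 0 in each comparison. DESeq2 called 1138 for HFD + PBS against normal diet, 1270 for HFD + IgG1 against HFD + PBS and 101 for HFD + IgG1 against normal diet, of which 1, 2 and 0 were among the 10. With no filter the counts over all genes were 274, 57 and 6. Only the 6 libraries compared gave 184 for HFD + PBS against normal diet and 3 for HFD + IgG1 against normal diet. Leaving out the 3 libraries that went against their labels gave 2 for HFD + PBS against normal diet. The antibody library labelled IgG1 alone gave 3 against HFD + PBS and 2 against normal diet. Leaving out 1 library gave 0 to 576, 0 to 2356 and 0 to 6, with the highest count of each comparison without HFD + IgG1 replicate 6, and 0, 0 to 2 and 0 of the 10 genes. Without HFD + PBS replicate 6 the counts were 14 for HFD + PBS against normal diet and 4 for HFD + IgG1 against normal diet. Of the 10 genes, those at an unadjusted p under 0.05, recounted after the data were seen, were 1 to 3, 3 to 4 and 0 to 2 with a library left out, the lowest for HFD + PBS against normal diet without normal diet replicate 4. With the 3 libraries that went against their labels left out, they were 2, 2 and 1.

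Sign changes for HFD + PBS against normal diet were Glul -0.03 with those 3 libraries left out, and ranges with 1 library left out of -0.05 to 0.37 for Glul, -0.50 to 0.02 for Slc1a2, -0.32 to 0.03 for Lhpp and -0.09 to 0.57 for Rhbg. For HFD + IgG1 against HFD + PBS Glul was -0.04 with upper-quartile factors, -0.01 with the 6 libraries compared and -0.16 with the library labelled IgG1 alone, where Lgr5 was 0.13. The ranges with 1 library left out were -0.22 to 0.17 for Glul, -0.07 to 0.61 for Oat, -0.39 to 0.18 for Lgr5, -0.07 to 0.42 for Slc1a2 and -0.15 to 0.30 for Lhpp. For HFD + IgG1 against normal diet Glul was -0.06 with the library labelled IgG1 alone, and with those 3 libraries left out Cyp2e1 was -0.23, Oat 0.02 and, among pathway genes so recomputed after the data were seen, Fzd7 -0.11. The ranges there were -0.10 to 0.25 for Cyp2e1, -0.49 to 0.16 for Oat, -0.14 to 0.02 for Slc1a2 and -0.32 to 0.11 for Lhpp.

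The labels do not say that a replicate number marks a shared batch. Deviations of same-numbered libraries from their group means correlated between -0.49 and 0.01. Pairs with different numbers were not compared, so these values cannot decide whether a batch was shared. With the replicate block 0 of the 10 genes were called in each comparison. As 0 were called without it too, the calls cannot show whether the block matters. Sign changes with the block were Lhpp 0.06 for HFD + PBS against normal diet, Glul -0.05, Oat -0.53, Slc1a2 -0.03 and Lhpp -0.41 for HFD + IgG1 against HFD + PBS, and Axin2 0.03 for HFD + IgG1 against normal diet. Upper-quartile factors moved the split of all genes at an unadjusted p under 0.05 for HFD + IgG1 against HFD + PBS to 1369 higher and 1996 lower, against 1863 higher and 1706 lower with TMM.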
